A study of Mus musculus with 21 samples.

Results

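The regions described here are those whose accessibility in the quadriceps myonuclei of trained mice, taken 0 h after an exhaustive run, differed from that of sedentary mice. They are all the regions that the deposited table of this comparison lists, 34078 of the 63953 regions tested and of the 41411 listed in any of the 5 comparisons with a listed region. Every one passed the authors' threshold, a false discovery rate under 0.05. A region was taken as gained where the level in trained 0 h muscle exceeded that in sedentary muscle, and as lost where it lay below.

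The study mapped open chromatin in nuclei of wildtype male C57/Bl6 mice with ATAC-seq, in 21 samples that form 7 groups of 3. The trained 0 h mice had lived with running wheels for 12 weeks, then ran to exhaustion on a treadmill and were killed directly afterwards. Sedentary mice neither trained nor ran. None of the groups analysed here was trained but spared the exhaustive run, and the effects of the 12 weeks on the wheel and of the last run therefore cannot be told apart. The other groups were trained mice 6 or 72 h after the run, and untrained mice 0, 6 or 72 h after it. Nuclei were taken from crushed frozen muscle with an antibody against PCM1, and fewer nuclei of a type and less accessibility per nucleus cannot be told apart in such bulk samples. Whether the 3 samples of each group are 3 different mice is not stated in the labels. The tables used here give the mean of each group, so depth per sample and spread between samples are unknown, and a value below has no error of its own.

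ATAC-seq uses a transposase that cuts DNA where it is not wrapped around nucleosomes or bound by other proteins, so that promoters and enhancers in use collect reads. PCM1 sits on the envelope of nuclei inside muscle fibres and is little present on those of the mononucleated cells between them. Muscle contraction raises calcium, uses glycogen and fat, and sets off stress kinases, and these signals reach the nucleus through factors such as the Fos and Jun proteins. Fos and Jun form the dimer AP-1, which binds a short palindrome and is known for acting at enhancers with nucleosome-displacing partners. Glucocorticoids, catecholamines acting through cyclic AMP, and insulin are further signals that change with running and act on muscle genes.

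Loss prevailed. Of all tested regions 53.3% were listed, 46.3% as lost and 6.98% as gained, which came to 29616 lost and 4462 gained regions, so that 13.1% of the listed regions were gained. Levels are log2 values of a group's mean normalised reads in a region, and a change is the trained 0 h level minus the sedentary level on that scale. The median change of gained regions was 1.01 (quartiles 0.78 and 1.40), with a highest change of 3.74. The median change of lost regions was -0.91 (quartiles -1.12 and -0.75), with a lowest change of -3.79. The gains were thus fewer and spread more widely, and changes of 2 or more in size were found in 310 gained regions (6.95%) and in 234 lost regions (0.790%). The smallest changes that were listed were 0.42 and -0.36.

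**Figure D1:**
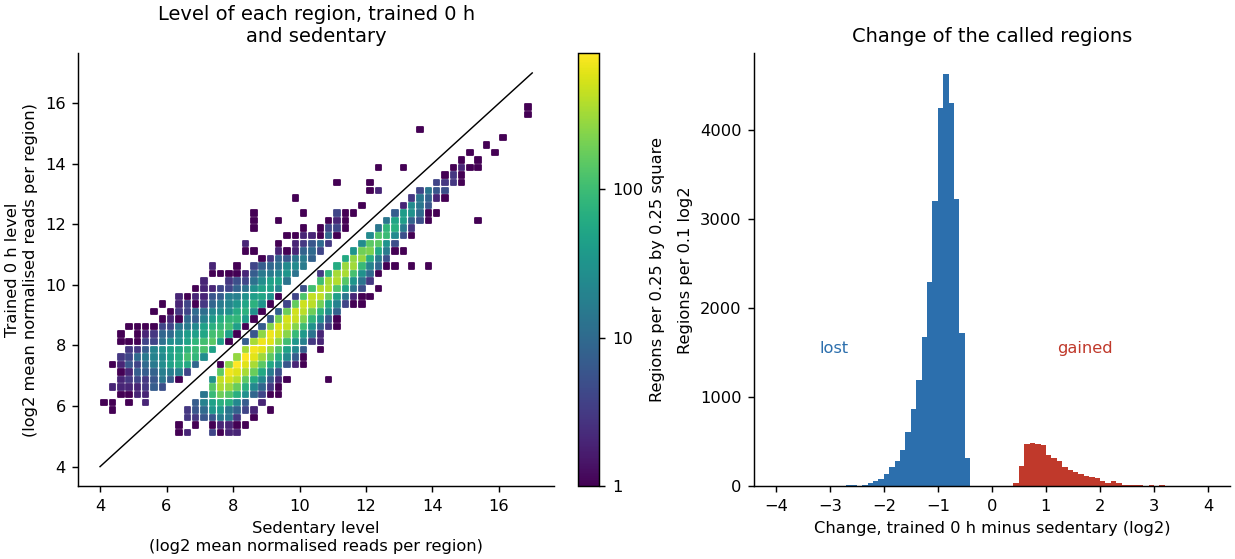
Left, trained 0 h level (y axis) against sedentary level (x axis) of the 34078 listed regions, both as log2 mean normalised reads per region, with colour giving the number of regions per square and the line marking equal levels. Right, number of regions by change (log2, bins of 0.1). The 29616 lost regions form a narrow peak (median -0.91). The 4462 gained regions form a lower, wider one (median 1.01) that is highest at 0.7 to 0.8.

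The letters of the AP-1 site set gained regions apart from lost ones. The palindrome TGANTCA, which reads the same on both strands, was searched in the central 300 bases of each region. Away from promoters it was found in 49.9% of gained regions (2137 of 4283, 95% Wilson interval 48.4 to 51.4%) and in 6.74% of lost regions (1543 of 22894, 6.42 to 7.07%), against 15.1% of the 34073 such regions listed in any comparison. In promoters, meaning regions within 1 kb of the start site of a protein-coding transcript, it was found in 47.5% of gained regions (85 of 179, 40.3 to 54.8%) and in 3.81% of lost regions (256 of 6722, 3.38 to 4.29%), against 5.60% of the 7338 promoters listed in any comparison. Put the other way, 55.3% of the 4021 listed regions with these letters were gained, and 7.45% of the 30057 without them. The intervals cover counting error only, and a match is a stretch of letters and not a measured binding event.

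The stretches below are shown because they carry this pattern. They lie in gained regions that the naming rule chose by size of change, each is the plus strand of GRCm39 read 5′ to 3′, and the capitals mark the AP-1 letters nearest to the centre of the region. The first 5 come from the 12 largest gains, of which 5 held the letters in this window, and the others were picked from regions named by genes of the lists used below. Of all 55 named gained regions 26 held the letters, beside 49.8% of all gained regions. Those of the housekeeping genes Gusb and Polr2a were among the 26 and are not shown, so the choice does not tie the letters to genes of a given role.
Focad, chr4:88132269-88132329: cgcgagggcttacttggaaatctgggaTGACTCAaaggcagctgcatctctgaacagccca
Dnajc13, chr9:104078671-104078731: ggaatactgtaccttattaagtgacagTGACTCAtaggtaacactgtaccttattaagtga
Esrrg, chr1:187643119-187643179: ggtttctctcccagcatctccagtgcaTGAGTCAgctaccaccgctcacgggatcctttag
Med9, chr11:59804677-59804737: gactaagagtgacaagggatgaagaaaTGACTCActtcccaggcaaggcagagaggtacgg
Gpat3, chr5:101009824-101009884: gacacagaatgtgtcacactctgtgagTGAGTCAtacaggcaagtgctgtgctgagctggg
Nrip1, chr16:76206387-76206447: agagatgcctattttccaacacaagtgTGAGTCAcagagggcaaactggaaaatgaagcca
Csrp3, chr7:48506565-48506625: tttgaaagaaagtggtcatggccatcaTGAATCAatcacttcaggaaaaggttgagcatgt
Atp1b1, chr1:164319203-164319263: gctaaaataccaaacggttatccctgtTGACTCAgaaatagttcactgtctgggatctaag
Camk2d, chr3:126454756-126454816: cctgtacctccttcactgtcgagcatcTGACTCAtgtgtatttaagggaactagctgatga
Fosl2, chr5:32193265-32193325: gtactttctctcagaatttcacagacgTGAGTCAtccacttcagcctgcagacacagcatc
Atf3, chr1:190962935-190962995: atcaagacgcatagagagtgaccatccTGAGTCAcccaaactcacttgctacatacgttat
Vegfa, chr17:46315273-46315333: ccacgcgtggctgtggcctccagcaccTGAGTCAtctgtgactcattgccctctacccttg

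Among these stretches the palindrome had G or C at its middle base in every case but that of Csrp3. Over all regions, the form with G or C at the middle was found in 43.3% of gained and 3.81% of lost regions, and the form with A or T in 10.1% of gained and 2.34% of lost regions. A pair of matches or more was found in the windows of 500 gained regions (11.2%) and of 53 lost regions (0.179%). In gained regions the nearest match lay a median of 45 bp from the region's centre, and 54.8% of the matched regions had it within 50 bp. In lost regions the median distance was 73 bp, with 35.0% within 50 bp, which is close to the even spread seen in the plot of distances.

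The share with AP-1 letters rose with the size of the gain and fell with the size of the loss. It was 40.9% of the 982 gained regions with a change under 0.75, 51.1% of the 1358 with a change of 1 to 1.5, and 67.4% of the 310 with a change of 2 or more. Among lost regions it was 8.75% of the 7349 with the smallest changes and 2.14% of the 234 with the largest. The contrast held in each quartile of the sedentary level, from 53.2% of gained and 6.84% of lost regions in the lowest quartile to 19.3% of gained and 5.26% of lost regions in the highest, where only 83 regions were gained. It also held at each distance from the start site, with shares of 47.5 to 50.3% in gained and 3.81 to 7.52% in lost regions over 5 distance classes. No test was made of these differences, since the listed regions were chosen by their change.

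**Figure D2:**
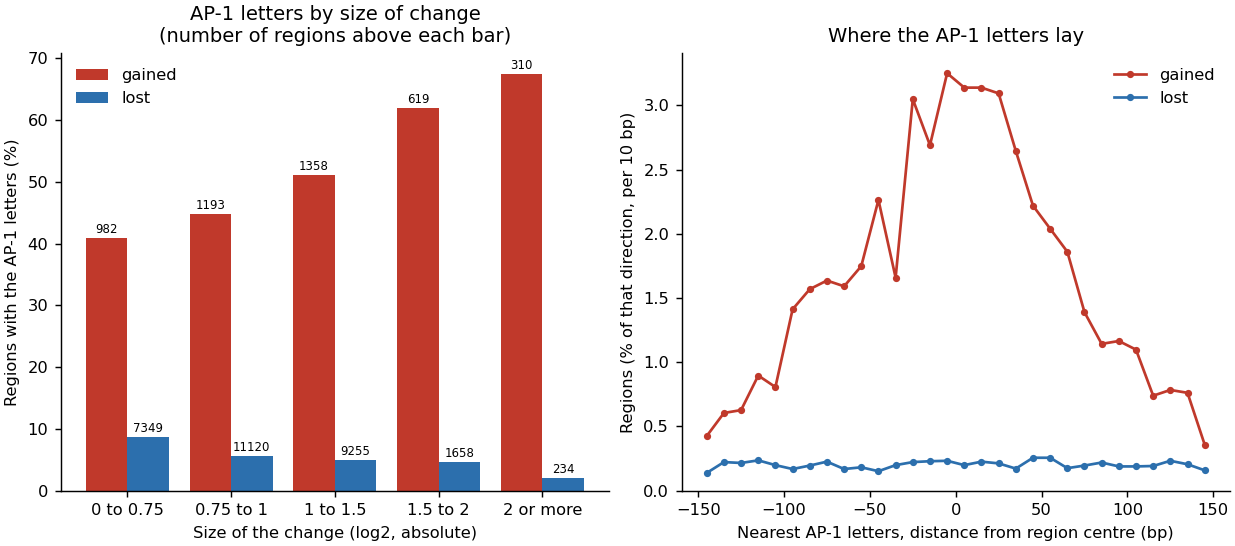
Left, share of regions (%) with the AP-1 letters in the central 300 bases, by size of change (log2), for gained and lost regions, with the number of regions above each bar. Right, share of all regions of each direction (% per 10 bp) whose nearest AP-1 letters lay at a given distance from the region's centre (bp), where gained regions peak at the centre and lost regions run level.

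Away from promoters none of the other 14 motifs searched differed by as many percentage points. The cyclic AMP response element TGACGTCA, the site of Creb, which shares its outer bases with the AP-1 site but cannot match the same 7 letters, was found away from promoters in 2.10% of gained and 0.236% of lost regions (0.701% of those in any comparison). It was more frequent in the gained regions without AP-1 letters (3.03% of 2146) than in those with them (1.17% of 2137). The E-box CACGTG of the clock proteins was found in 7.28% of gained and 4.28% of lost regions (5.02% of those in any comparison). The letters AGAACA, bound by the glucocorticoid receptor, were found in 28.6% of gained and 23.9% of lost regions (24.7% of those in any comparison). The muscle E-box CAGCTG, a site of the MyoD family, was found in 25.8% of gained and 28.6% of lost regions (28.4% of those in any comparison), and the MEF2 site in 7.49% and 7.19% (7.45%).

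Promoters showed the reverse for GC-rich letters. GGGCGG, the box of the Sp and Klf factors, was found on either strand in 8.94% of the 179 gained promoters and in 48.6% of the 6722 lost promoters (45.5% of those in any comparison). CCGGAAGT, bound by Ets factors, was found in 0.559% of gained and 6.71% of lost promoters (6.23% of those in any comparison). The median GC content was 47.9% in gained and 51.6% in lost regions, and its part in these shares was not tested. Of the 6 named promoters with the largest losses, 3 held the box, and the match at Scn4b, which encodes a sodium channel beta subunit, is given here on the plus strand with GGGCGG in capitals.
Scn4b, chr9:45049543-45049572: aaatgggttggtGGGCGGcgtgcaggagac

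Gained regions were rare at promoters. Of gained regions 4.01% (3.47 to 4.63%) were promoters, and of lost regions 22.7% (22.2 to 23.2%). Gained regions made up 2.59% of the 6901 listed regions within 1 kb of a start site, 11.5% of those at 1 to 10 kb, 15.4% at 10 to 50 kb and 21.8% at 50 to 100 kb. The median loss differed little with distance, with a median change of -0.91 in lost promoters and of -0.90 in lost regions 50 to 100 kb away. Large losses were less frequent at promoters. A change of 1 or more in size was found in 32.8% of lost promoters and in 39.1% of other lost regions. Introns held 43.9% of gained and 35.8% of lost regions.

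Gained regions were also the weaker ones at rest. Per kb of region, the median trained 0 h and sedentary levels were 9.53 and 8.43 in gained regions, and 9.11 and 10.05 in lost regions. After the run the median density of reads was thus higher in gained than in lost regions, whereas at rest it was lower. By quartile of the sedentary level per region, 38.2% of regions were gained in the lowest, 8.12% in the next, 5.05% in the one above it and 0.974% in the highest. By quartile of the sedentary level per kb these shares were 46.5, 4.34, 1.303 and 0.270%. The median change of lost regions stayed between -0.89 and -0.93 over the 4 quartiles of level per region. The sedentary level is part of the change, so these shares are given with no test.

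**Figure D3:**
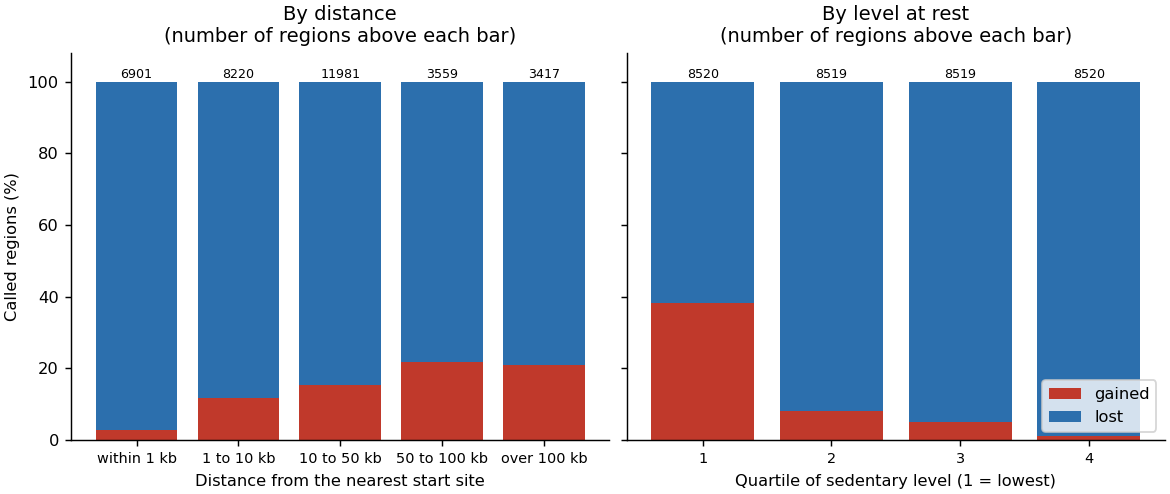
Share of listed regions (%) that were gained or lost, left by distance from the nearest start site and right by quartile of the sedentary level per region, with the number of regions above each bar. Gained regions form 2.59% of the regions within 1 kb and 38.2% of those in the lowest quartile.

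The 12 largest gains among regions of at least median level, within 100 kb of a start site and with 1 region per gene, ranged from 2.38 to 3.53. The largest lay over the 3′ end of Ppargc1a (chr5:51603688-51612113, 8426 bp), which encodes the coactivator PGC-1alpha that drives mitochondrial biogenesis, with a log2 level of 12.25 in trained 0 h muscle and 8.72 in sedentary muscle. An intronic region of Esrrg (chr1:187642699-187643651), which encodes the oestrogen-related receptor gamma of oxidative fibres, had a level of 10.36 in trained 0 h muscle and 7.33 in sedentary muscle, a change of 3.03. A region 73094 bp upstream of the nearest start site of Egln3 (chr12:54323767-54324477), a prolyl hydroxylase that marks HIF for breakdown, had a level of 10.31 in trained 0 h muscle and 7.71 in sedentary muscle, a change of 2.60. An intron of Gpat3 (chr5:101009537-101010207), an acyltransferase of triglyceride synthesis, had a level of 9.67 in trained 0 h muscle and 7.29 in sedentary muscle, a change of 2.38.

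The remaining 8 gains belonged to genes of mixed function. An intron of Bach2 (chr4:32314697-32315459), a repressor of the basic leucine zipper family whose members bind AP-1-like sites, had a level of 9.73 in trained 0 h muscle and 6.68 in sedentary muscle, a change of 3.05. An intron of Dnajc13 (chr9:104078258-104079131), a co-chaperone of endosomes, had the highest trained level of the set, 12.96 in trained 0 h muscle and 9.83 in sedentary muscle, a change of 3.13. Focad had a change of 3.23, Ankrd33b of 3.22, Cdh13, which encodes T-cadherin, of 2.78, Med9, a Mediator subunit, of 2.74, Hs6st1, a heparan sulphate sulphotransferase, of 2.56 and Fhad1 of 2.41. A gene name marks the nearest start site and does not show that the region acts on that gene.

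The 12 largest losses ranged from -2.34 to -3.79. The region with the largest change lay 20368 bp upstream of the nearest start site of Tnp1, a gene of sperm chromatin (chr1:73075576-73076269), with a level of 6.995 in trained 0 h muscle and 10.78 in sedentary muscle. Pfkfb3, whose enzyme makes the fructose 2,6-bisphosphate that activates glycolysis, had a region of 32092 bp over the 3′ end of the gene (chr2:11472449-11504540) with a level of 12.22 in trained 0 h muscle and 15.39 in sedentary muscle, a change of -3.17. An intron of Ryr1, the calcium release channel of the sarcoplasmic reticulum (chr7:28783641-28784466), had a level of 9.61 in trained 0 h muscle and 12.12 in sedentary muscle, a change of -2.51. An intron of Scn4b had a change of -2.55 and its promoter region one of -2.06. An intron of Sptb, which encodes beta spectrin of the membrane skeleton, had a change of -2.49. An intron of Nfib, a factor of the nuclear factor I family, had a level of 8.51 in trained 0 h muscle and 10.85 in sedentary muscle. None of these 12 regions held the AP-1 letters in its central 300 bases. The letters were rare in lost regions at large, at 6.07% of all of them. They were found in 2.14% of the 234 lost regions with a change of 2 or more in size.

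**Figure D4:**
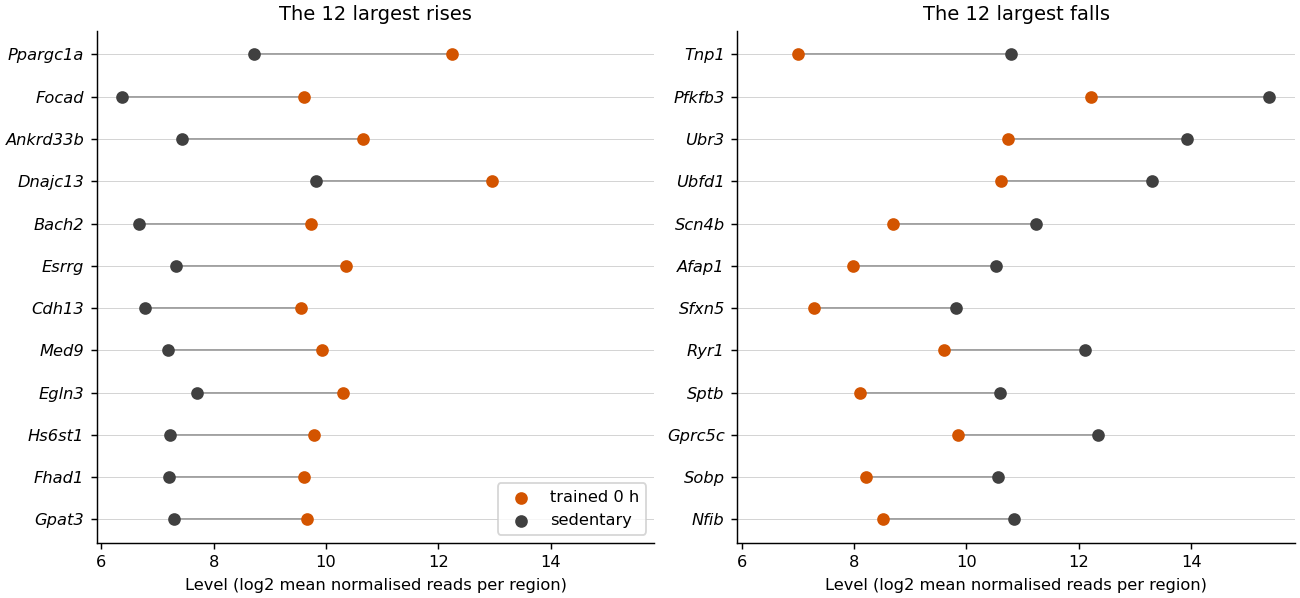
Level (log2 mean normalised reads per region) in trained 0 h muscle (orange) and sedentary muscle (grey) of the 12 largest gains (left) and the 12 largest losses (right), 1 region per gene. The sedentary levels of the gains lie between 6.37 and 9.83, and those of the losses between 9.82 and 15.39.

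Of the 179 gained promoters, the largest gain under the same conditions was at Golga4, a protein of the trans-Golgi, with a level of 9.73 in trained 0 h muscle and 8.06 in sedentary muscle and a change of 1.67. Slc39a14, the zinc and iron importer ZIP14, had 9.98 in trained 0 h muscle and 8.44 in sedentary muscle, a change of 1.54. Trim63, which encodes the ubiquitin ligase MuRF1 that marks sarcomere proteins for breakdown, was covered by a region of 18829 bp (chr4:134041153-134059981) with 15.10 in trained 0 h muscle and 13.63 in sedentary muscle, a change of 1.47. That region was not listed in the comparisons of untrained 0 h, untrained 6 h, trained 6 h or trained 72 h muscle, which share the sedentary samples. The Ppargc1a promoter region (25021 bp) had 13.76 in trained 0 h muscle and 12.34 in sedentary muscle, a change of 1.42, and Por, the cytochrome P450 reductase, had a change of 1.42.

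The 6 largest promoter losses ranged from -2.06 to -2.20. Pea15a, an adaptor that binds ERK kinases, had a level of 8.32 in trained 0 h muscle and 10.53 in sedentary muscle. Sema6c, a transmembrane semaphorin, had 10.64 in trained 0 h muscle and 12.82 in sedentary muscle, a change of -2.18. Plcd4, a phospholipase C that splits membrane phosphoinositides, had 9.11 in trained 0 h muscle and 11.20 in sedentary muscle, a change of -2.09. Gprc5c, an orphan receptor, had a change of -2.14 and Shisa4 of -2.08.

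Of the 11455 protein-coding genes with a listed region, 8872 (77.5%) had lost regions only, 604 (5.27%) gained regions only and 1979 (17.3%) both. A lost promoter was found at 5856 genes and a gained promoter at 161. Both directions were unevenly spread over genes. At least 5 gained regions were found at 120 genes, which together held 857 gained regions (19.2%). At least 10 lost regions were found at 404 genes, which together held 5796 of the 29616 lost regions. Among the genes with most gained regions were Ppargc1a (23 gained and 6 lost), Tacc2 (19 and 3), Nnmt (14 and 0), Med13l (13 and 16) and Pde4d (13 and 26). Tacc2 encodes a centrosome-associated coiled-coil protein and Nnmt a methyltransferase that uses up nicotinamide. Of the 14 gained regions named by Nnmt, 0 lay in the gene or its promoter, so they were linked to it by nearness only. At Tacc2 all 19 lay there, and at Ppargc1a 17 of the 23. Among the genes with most lost regions were Nfib (47 lost and 1 gained), Gse1 (46 and 0), Ttn (45 and 0), Rora (42 and 11) and Rbfox1 (35 and 2).

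Some of these regions were wide. At 2 kb or more lay 2.04% of gained (91) and 5.24% of lost regions (1552). The longest gained stretches were at Ppargc1a, with 13 wide regions of 97890 bp in all and a median change of 3.07, at Zbtb16, with 7 wide regions of 53657 bp and a median change of 0.82, and at Tacc2, with 10 of 46359 bp and 0.78. Hk2 had a pair of wide regions of 30515 bp and a median change of 1.73. The longest lost stretch was at Ttn, which encodes titin, the spring of the sarcomere, with 27 wide regions of 153208 bp and a median change of -0.74. It was followed by Mylk4, a myosin light chain kinase, with 10 of 78649 bp and -0.94. Myh4, the myosin heavy chain of the fastest fibres, had 3 of 33496 bp and -1.22.

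Regions were then grouped by lists of genes with a known role. Over all genes 13.1% of the listed regions were gained and the median change was -0.86, and a lost promoter was found at 26.9% of all 21751 annotated genes, of which 11455 had a listed region. Each list is set beside these values with no test. The share gained ran from 3.10% for markers of the myofibre to 62.9% for genes of the glucocorticoid response. Some genes are on more than 1 list.

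**Figure D5:**
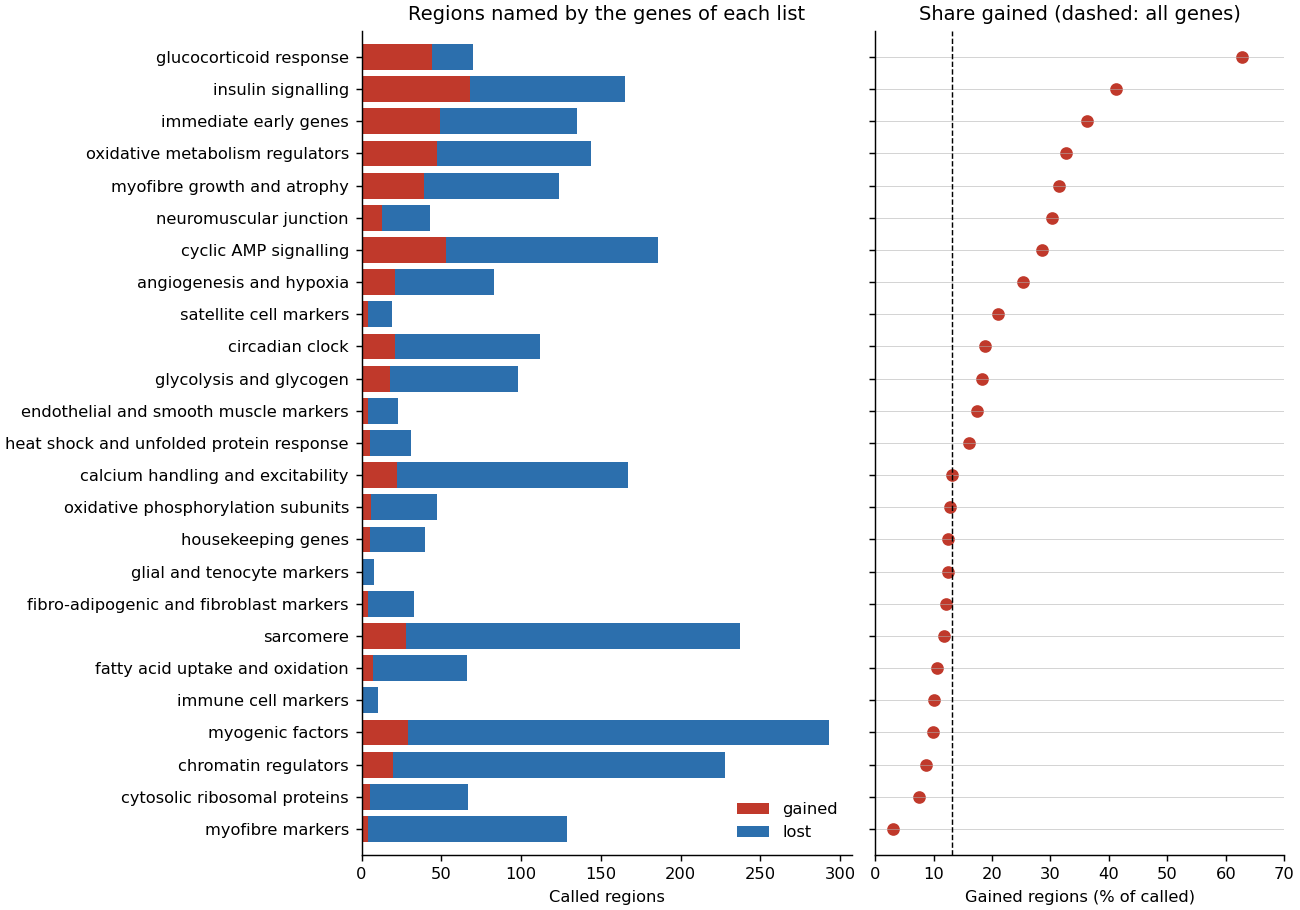
Left, number of gained and lost regions named by the genes of each of 25 lists. Right, share of those regions that were gained (%), with the share over all genes (13.1%) dashed, where the glucocorticoid response list stands highest at 62.9% and the myofibre markers lowest at 3.10%.

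Genes of the glucocorticoid response, the receptor gene included, had 44 gained and 26 lost regions (62.9% gained, median change 0.67), the only list with more gains than losses. Of 18 genes, 6 had gained regions only, 4 had both, 3 had losses only and 5 had no listed region. An intron of Fkbp5, a chaperone of the glucocorticoid receptor, had a level of 7.71 in trained 0 h muscle and 5.58 in sedentary muscle, a change of 2.12, and all 5 of its listed regions were gained. Cebpd, a C/EBP factor, had 6 gained and 0 lost regions, with a highest change of 1.67. Zbtb16, a zinc finger repressor also called PLZF, had 12 gained and 1 lost, with a highest change of 1.38. Ddit4, an inhibitor of mTORC1, had 5 gained and 0 lost (highest 0.98), and Errfi1, a feedback inhibitor of the EGF receptor, 3 gained and 0 lost (highest 1.16). Tsc22d3, which encodes the leucine zipper GILZ, had 6 gained and 7 lost. The receptor gene Nr3c1 itself had 0 gained and 2 lost regions, Klf15 0 and 3, and Dusp1 0 and 4. Losses also outnumbered gains at Sgk1 (1 gained and 6 lost) and Glul (2 and 3).

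The gained regions of this list held AP-1 letters less often than gained regions at large, a difference that was not tested. Of the 44, 6 (13.6%) held the AP-1 letters, against 49.8% of all gained regions, and 17 (38.6%) held AGAACA. Of its 26 lost regions, 38.5% held AGAACA, so those letters did not separate the directions within the list. Over the lists with at least 20 gained regions, the share with AP-1 letters ran from this one to 63.6% of 22 for calcium handling and excitability.

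Insulin signalling genes had 68 gained and 97 lost regions (41.2% gained, median change -0.65), and among changes of 1 or more in size their median was 1.152. Irs2, a docking protein under the insulin receptor, had 12 gained and 6 lost regions, and its largest gain, 362538 bp downstream of the nearest start site, had a level of 9.65 in trained 0 h muscle and 6.42 in sedentary muscle, a change of 3.23. Ptpn1, the phosphatase PTP1B that switches the receptor off, had 7 gained and 3 lost, and Foxo1, a factor that insulin excludes from the nucleus, 5 gained and 3 lost. Pik3cb, a catalytic subunit of PI 3-kinase, had 1 gained region at 7.63 in trained 0 h muscle and 5.67 in sedentary muscle, a change of 1.96. Losses stood at Tbc1d4, the Akt substrate AS160 that releases GLUT4 vesicles, with 0 gained and 12 lost regions, of which an intronic one had a level of 6.36 in trained 0 h muscle and 9.36 in sedentary muscle, a change of -3.00. Akt2 had 0 gained and 4 lost, and Akt1 0 gained and 3 lost. Grb10, an adaptor that restrains the receptor, had 2 gained and 7 lost, the lowest at -3.00.

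Genes of glycolysis and glycogen had 18 gained and 80 lost regions (18.4% gained, median change -0.91), and lost promoters at 17 of 30 genes with a median change of -1.06. Eno3, muscle enolase, had 10.76 in trained 0 h muscle and 12.70 in sedentary muscle, a promoter change of -1.94. The promoter of Gapdh had a change of -1.06, that of Ldha, lactate dehydrogenase A, of -1.15, and that of Pkm, pyruvate kinase, of -1.14 at its lowest. The promoters of Pfkm, muscle phosphofructokinase, and Pgam2, muscle phosphoglycerate mutase, changed less, by -0.91 and -0.78, no promoter of Pgk1 was listed, and Aldoa had no listed region. Pfkfb1, a relative of Pfkfb3, had 9 lost and 0 gained regions, with a promoter level of 5.69 in trained 0 h muscle and 8.02 in sedentary muscle, a change of -2.33. Hk2, which phosphorylates glucose on entry and so commits it to the cell, had 4 gained regions and 1 lost, the largest over its 3′ end at 13.31 in trained 0 h muscle and 11.03 in sedentary muscle, a change of 2.28. Ugp2, which makes UDP-glucose, had 4 gained and 0 lost (highest 1.78), Gbe1, the glycogen branching enzyme, 4 and 0 (highest 1.92), and Ppp1r3c, a glycogen-targeting subunit of phosphatase 1, 2 and 0 (highest 1.71). Ppp1r3a, the glycogen-targeting subunit typical of skeletal muscle, had 0 gained and 12 lost regions, Gys1, glycogen synthase, 0 and 2, Gyg1, glycogenin, 2 and 3, and Hk1, a second hexokinase, 0 and 1. The glucose transporter gene Slc2a4 had no listed region. These genes were picked out after their values were seen.

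Regulators of oxidative metabolism had 47 gained and 97 lost regions (32.6% gained, median change -0.80). Most of these gains lay far from a start site, and within 10 kb the list had 2 gained and 37 lost regions. Ppargc1a alone held 23 of the 47 gained regions, and 10 of the 19 genes with a listed region had losses only. At Ppargc1a the largest gain without the condition on level, over a coding exon (chr5:51647044-51647826), had a level of 8.26 in trained 0 h muscle and 4.54 in sedentary muscle, a change of 3.73, while the lowest of its 6 lost regions had a change of -2.60. Esrrg had 10 gained and 4 lost regions. Nrip1, a corepressor of oxidative genes, had a region 35507 bp upstream of the nearest start site with 8.21 in trained 0 h muscle and 5.25 in sedentary muscle, a change of 2.97. Mef2a, a factor of muscle genes, had one 17951 bp upstream of the nearest start site with 7.84 in trained 0 h muscle and 5.76 in sedentary muscle, a change of 2.08. The relatives Ppargc1b (0 gained and 8 lost) and Ppard (0 and 6), the AMP-activated kinase subunits Prkaa2 (0 and 8) and Prkag3 (0 and 8), and Tfam (0 and 5), which packages mitochondrial DNA, had losses only.

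Lists of mitochondrial and fatty acid genes lay close to the values over all genes. Subunits of oxidative phosphorylation had 6 gained and 41 lost regions (12.8% gained, median change -0.85), with lost promoters at 15 of 32 genes and a median change of -0.89 in them. Uqcrc1 of complex III had a promoter level of 8.58 in trained 0 h muscle and 9.94 in sedentary muscle, a change of -1.36. Genes of fatty acid uptake and oxidation had 7 gained and 59 lost regions (10.6% gained, median change -0.90). Slc27a1, the fatty acid transporter FATP1, had 9.06 in trained 0 h muscle and 11.07 in sedentary muscle, a change of -2.01. Cpt1b, which admits fatty acids to mitochondria, had a promoter change of -1.22 and Cd36, a fatty acid carrier, of -1.02. Gains were found at Ucp3 (2 gained and 1 lost) and Acsl1 (2 and 8).

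Sarcomere genes had 28 gained and 209 lost regions (11.8% gained, median change -0.86), with lost promoters at 24 of 40 genes and gained promoters at 3, those of Neb, Myoz2 and Csrp3. Titin had 45 lost regions and 0 gained, Neb, nebulin of the thin filament, 22 lost and 1 gained, and Tpm1, a tropomyosin, 16 and 0. The fast myosins lost accessibility at their promoters, with a level of 5.63 in trained 0 h muscle and 7.67 in sedentary muscle at Myh2, a change of -2.04, and of 8.01 in trained 0 h muscle and 9.85 in sedentary muscle at Myh1, a change of -1.84. Gains without losses stood at 4 genes of the Z disc and M band. Csrp3, the muscle LIM protein of the Z disc, had 3 gained regions, with 8.71 in trained 0 h muscle and 6.15 in sedentary muscle in that shown above, a change of 2.57. Myoz2, which ties calcineurin to the Z disc, had 3 gained regions, the highest at 7.77 in trained 0 h muscle and 5.80 in sedentary muscle, a change of 1.97. Actn2, alpha-actinin 2, had 2 gained, with a highest change of 1.58, and Myom1, myomesin of the M band, 3 gained, with a highest change of 1.16. Losses only were found at their relatives Myoz1 (3), Myoz3 (2), Actn3 (1) and Myom2 (5), at the Z disc genes Ldb3, Tcap and Flnc, and at the slow-fibre genes Tnni1 (5) and Tnnt1 (2), while Myh7, Tnnc1 and Tpm3 had no listed region.

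Calcium handling and excitability genes had 22 gained and 145 lost regions (13.2% gained, median change -1.02), with at least 1 listed region at all 29 genes and lost promoters at 21, the median change there being -1.09. Of the genes of calcium release, Ryr1 (17 lost), Cacna1s, the voltage sensor (7), the junctophilins Jph1 (11) and Jph2 (12), and Casq1, which stores calcium (2), had losses only. Gains beside losses were found at Ryr3, a second release channel gene (1 gained and 1 lost), Trdn, triadin (1 and 7), and Cacng1, a subunit of the voltage sensor (2 and 1). Sln, sarcolipin, which uncouples the SERCA pump, had 5 gained and 0 lost regions, with a highest change of 1.52. Atp1b1, a subunit of the sodium pump, had 5 gained and 2 lost, the highest at 9.32 in trained 0 h muscle and 6.72 in sedentary muscle, a change of 2.60. Camk2d, a calcium-dependent kinase, had 4 gained and 9 lost, the highest at 8.48 in trained 0 h muscle and 6.05 in sedentary muscle, a change of 2.43, while its relative Camk2g had 0 gained and 13 lost. Atp2a1, the SERCA1 pump itself, had a promoter change of -1.38.

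Immediate early genes, which are transcribed within minutes of a stimulus, had 49 gained and 86 lost regions (36.3% gained, median change -0.68). Among the genes of the AP-1 subunits, Fos had 0 gained and 7 lost regions, Jund 0 and 2, Jun 3 and 8, and Fosl2 1 and 9, while Fosb had 2 gained and 1 lost. Junb and Fosl1 had no listed region. The only gain at Fosl2, 99108 bp upstream of the nearest start site, had a level of 8.79 in trained 0 h muscle and 6.73 in sedentary muscle, a change of 2.05. Atf3, a stress-induced partner of Jun proteins, had 5 gained and 0 lost regions, with 8.45 in trained 0 h muscle and 6.60 in sedentary muscle in that shown above, a change of 1.86, and a promoter change of 1.64. The Kruppel-like factors Klf6 (10 gained and 1 lost, highest 2.33) and Klf4 (7 and 1) had mostly gains, whereas Klf10 had 0 gained and 9 lost, the lowest at -1.68. Myc had 11 gained and 20 lost. Egr1, Egr3, Ier2, Btg2 and the phosphatase gene Dusp1 had losses only.

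Genes of myofibre growth and atrophy had 39 gained and 85 lost regions (31.5% gained, median change -0.79). Mstn, myostatin, which limits muscle mass, had a region 47546 bp downstream of the nearest start site with 7.90 in trained 0 h muscle and 4.96 in sedentary muscle, a change of 2.93, beside 3 lost regions. The atrophy ligase genes Fbxo32 (2 gained and 0 lost) and Trim63 (2 and 0) and the factor gene Foxo3 (2 and 0) had gains only. An intron of Smad3, a mediator of myostatin and TGF-beta signals, had 7.94 in trained 0 h muscle and 5.72 in sedentary muscle, a change of 2.22, among 4 gained and 5 lost regions. Sesn1, a stress-induced inhibitor of mTORC1, had 9.13 in trained 0 h muscle and 7.12 in sedentary muscle in its region with the highest change, 2.01. Losses only were found at Acvr2a (15), a myostatin receptor, and Deptor (12), an inhibitor of mTOR. The genes of the neuromuscular junction had 13 gained and 30 lost regions (30.2% gained, median change -0.77), with the gains mostly at Musk, the receptor kinase that clusters acetylcholine receptors (8 gained and 0 lost, highest 1.91). The receptor subunit Chrne had a promoter level of 7.97 in trained 0 h muscle and 9.96 in sedentary muscle, a change of -1.99, and Ache, acetylcholinesterase, a promoter change of -1.52.

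Angiogenesis and hypoxia genes had 21 gained and 62 lost regions (25.3% gained, median change -0.81), and within 10 kb of a start site 1 and 18. Hif1a, the oxygen-sensitive factor, had 8 gained and 3 lost regions, the highest at 11.02 in trained 0 h muscle and 8.35 in sedentary muscle, a change of 2.67, and Egln3 had 5 gained and 1 lost. Vegfa, the main vascular growth factor, had 1 gained region, at 9.07 in trained 0 h muscle and 7.31 in sedentary muscle, a change of 1.75, and 8 lost. Its coreceptor gene Nrp1 had 0 gained and 13 lost, and Angpt1, which steadies vessels, 0 and 7, the lowest at -2.62. Cyclic AMP signalling genes had 53 gained and 133 lost regions (28.5% gained, median change -0.76), and within 10 kb of a start site 5 and 43. The phosphodiesterases differed, with 13 gained and 26 lost regions at Pde4d, 9 and 4 at Pde10a, and 0 and 4 at Pde4a. Crtc3, a coactivator of Creb, had 0 gained and 17 lost, and the kinase gene Sik1, which acts against those coactivators, 5 gained and 6 lost.

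Clock genes had 21 gained and 91 lost regions (18.8% gained, median change -0.83), at 15 of 20 genes. Rora alone, a long gene of a nuclear receptor, held 11 of the gained and 42 of the lost regions. Clock, Per1, Cry1, Dbp and Ciart had no listed region. Bmal1, the activator of the core loop, had 4 gained regions and 1 lost with a promoter change of 0.93, and Nfil3, a repressor at D-boxes, 4 and 6 with a promoter change of 0.92. The D-box activators Tef (0 gained and 6 lost, lowest -1.90) and Hlf (0 and 8, lowest -1.46) had losses only, as had Per2 (0 and 2) and Per3 (0 and 2). The times of day of the samples are not given in the sources used here. Heat shock and unfolded protein response genes had 5 gained and 26 lost regions (16.1% gained, median change -0.74), with an intron of the chaperone gene Hsph1 at 6.81 in trained 0 h muscle and 4.66 in sedentary muscle, a change of 2.15.

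Lists of myogenic factors and chromatin regulators had shares gained somewhat under that over all genes and medians close to it. Myogenic factors had 29 gained and 264 lost regions (9.90% gained, median change -0.91), with lost promoters at 18 of 30 genes and gained promoters at 0. Nfib had 47 lost regions, Maf, which drives the fastest fibre type, 26 lost and 5 gained, Tead1, a partner of Yap, 18 and 2, and Nfia 17 and 0. Myod1 had 7 lost and 0 gained. Chromatin regulators had 20 gained and 208 lost regions (8.77% gained, median change -0.94), with lost promoters at 20 of 38 genes. An intron of the class IIa deacetylase gene Hdac9 had 6.19 in trained 0 h muscle and 8.45 in sedentary muscle, a change of -2.26, and an intron of Dnmt3a, a DNA methyltransferase, 9.37 in trained 0 h muscle and 11.17 in sedentary muscle, a change of -1.79.

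Lists with no special tie to exercise were read in the same way. Cytosolic ribosomal protein genes had 5 gained and 62 lost regions (7.46% gained, median change -0.77), with lost promoters at 23 of 41 genes, gained promoters at 0 and a median change of -0.79 in the lost promoters. Housekeeping genes had 5 gained and 35 lost regions (12.5% gained, median change -0.94), with lost promoters at 6 of 29, a smaller share than that over all genes. The median change of lost promoters over all genes was -0.91. How the authors scaled the libraries against each other is not given in the sources used here, and scaling by other library factors would shift all changes by about the same amount.

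The label of the nuclei was read against marker genes. Against a listed region at 11455 of 21751 genes and a lost promoter at 26.9% of them, all 16 markers of the myofibre had a listed region, with 4 gained and 125 lost regions (3.10% gained, median change -0.96) and lost promoters at 14. Listed regions were also found at 10 of 12 endothelial and smooth muscle markers (4 gained and 19 lost), at 8 of 10 fibroblast markers (4 and 29), at 3 of 10 immune markers (1 and 9), at 5 of 8 satellite cell markers (4 and 15) and at 5 of 8 glial and tenocyte markers (1 and 7). Their median changes lay between -1.02 and -0.73, beside -0.96 for the myofibre markers. Median trained 0 h and sedentary levels per region were 8.80 and 9.62 for the myofibre markers, and ran over the 5 other lists from 7.66 to 8.19 in trained 0 h and from 8.12 to 9.19 in sedentary muscle. Lost promoters were found at 8 of the 48 genes of these 5 lists. Pecam1 of endothelium had an intronic level of 9.88 in trained 0 h muscle and 11.50 in sedentary muscle, a change of -1.63. Pax7 of satellite cells had one of 7.99 in trained 0 h muscle and 9.27 in sedentary muscle, a change of -1.29. Other markers of these lists had gains only. They were Vcam1 (1 gained and 0 lost, highest 1.74) and Sdc4 (2 and 0, highest 1.58) of satellite cells, Emcn (1 and 0, highest 0.70) of endothelium and Col3a1 (1 and 0, highest 0.68) of fibroblasts. The part of such nuclei in the other results was not tested.

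The same regions were read in the other comparisons, all of which share the sedentary samples, so that likeness between them is not counted as support. The Ppargc1a 3′ end region changed by 3.53 in trained 0 h and by 0.69 in untrained 0 h muscle, whereas the Ppargc1a promoter region changed by 1.42 in trained 0 h and by 2.16 in untrained 0 h muscle. The Hk2 region changed by 2.28 in trained 0 h and 0.86 in untrained 0 h muscle, and that of Pfkfb3 by -3.17 and -1.34. The AP-1 bearing region of Camk2d changed by 2.43 at trained 0 h, 1.71 at trained 6 h, 1.38 at untrained 0 h and 2.81 at untrained 6 h, and that of Dnajc13 by 3.13, 1.38, 2.58 and 2.81 in the same order. Regions named by Atf3, Mef2a, Vegfa and Musk above were not listed at untrained 0 h. At untrained 6 h those of Atf3 and Musk were listed, with changes of 2.43 and 1.40, and those of Mef2a and Vegfa were not. The difference between trained and untrained muscle was not tested here, and a region that is not listed may have changed by less than the threshold.

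The AP-1 letters were searched in the regions of each comparison in the same way. At 0, 6 and 72 h after the run of trained mice they were found in 49.8, 60.7 and 40.7% of gained regions (the last over 27 regions) and in 6.07, 7.15 and 10.1% of lost regions. In untrained muscle at 0 and 6 h they were found in 37.1 and 57.0% of gained and 8.20 and 4.43% of lost regions. In each of these 5 comparisons the share was higher in gained than in lost regions, and the differences between comparisons were not tested.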

How the data were processed

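ATAC-seq was made on PCM1-positive nuclei of mouse quadriceps. Per the labels and the study's methods, the authors trimmed reads (Trimmomatic 0.39), mapped them to GRCm39 (Bowtie2 2.4.4, SAMtools 1.15), called peaks (Genrich 0.6.1), counted and compared them with DiffBind 3.4.11 and annotated them with ChIPseeker 1.30.3. The deposited levels are log2 group means of normalised read counts per region, with no value per sample, so depth and precision per sample are unknown. The authors' fold, p-value and FDR columns were not used as results, and the deposited p-value and FDR columns served only to recover the number of regions tested. Sheets that repeat the lost or gained rows, and the empty one of untrained 72 h, were left out.

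The change was the difference of the group levels. Genes were the nearest protein-coding start site of GENCODE M39 (Python 3.11.15, pandas 2.3.3, pysam 0.24.0). Motifs were searched in 300 bases around each region's centre, on both strands. Intervals are 95% Wilson intervals. Annotation and motif search were tested on simulated regions.

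Named were the 12 largest gains and losses (level at or above the median, within 100 kb, 1 region a gene, no predicted genes), the 6 largest promoter gains and losses, the 6 genes with most gained and most lost regions, and up to 4 regions per list, of which some are not reported here. Other genes of the lists were named after their values were seen. The lists, motifs and rule were chosen with earlier results of these data known. Alternatives covered thresholds, a common offset, level filters, promoter definitions, motif windows and distance.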

Additional observations from a re-analysis of the deposited data

How the results depend on the processing

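No paired analysis was possible because only means of each group were given, and for the same reason no replicate could be left out in turn. At changes of 1 or more, 2287 gained and 11147 lost regions were left (17.02% gained), and at levels at or above the median 1255 and 15784 (7.37%). The share gained was 14.1% with an offset of 0.5 added to every change and 10.6% by summed width. The median change was 0.91 in gained regions at or above the median level. Mean changes were 1.1501 in gained and -0.97 in lost regions. Over both groups the median level was 8.04 in gained and 8.85 in lost regions, and per kb at rest, an alternative chosen after the data were seen, 8.43 and 10.05.

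The promoter share of gained and lost regions was 9.26 and 29.8% within 3 kb, 2.98 and 20.9% within 0.5 kb, 7.28 and 11.03% by the deposited annotation, and 3.89 and 19.8% at changes of 1 or more, where 6.00% of lost regions were wide. AP-1 letters away from promoters stood in 60.5% of gained and 14.97% of lost regions over the whole region, and in 42.0 and 4.43% in the central 200 bases. GGGCGG stood in 18.4% of gained and 72.1% of lost promoters over the whole region, and in 4.47 and 37.9% in the central 200 bases. Within 10 kb, 457 genes had both directions. At that distance insulin signalling had 11 gained and 25 lost regions, immediate early genes 7 and 10, and the glucocorticoid response 9 and 7. At changes of 1 or more, 2 lists had more gained than lost regions. The median change of insulin signalling turned positive there (1.152, over 38 gained and 27 lost regions). Those of immune cell markers (0.20) and of glial and tenocyte markers (0.28) did so too. Each of these marker lists had only 1 gained and 1 lost region left, so its median says little about the list. The causes of these shifts were not tested, beyond fewer regions entering at a higher threshold. Lost regions outnumbered gained ones in every alternative run on their numbers. The offsets of 0.25 and 0.5 could not have changed that, since the median change of lost regions was -0.91. AP-1 letters were more frequent in gained than in lost regions in both motif windows tried.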

Other observations

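Chromosomes differed in the share of listed regions that were gained, leaving out chromosome Y with its 3 lost regions, from 7.60% of 592 regions on chromosome X and 9.27% of 2665 on chromosome 11 to 16.4% of 2363 on chromosome 1 and 17.7% of 1324 on chromosome 13. The median change of lost regions on these chromosomes lay between -0.93 and -0.89.

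At 14 genes there were at least 5 gained regions and none lost. Genes with 10 or more lost regions numbered 404, of which 182 had no gained region, and they held 5796 of the lost regions.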
